A study of Homo sapiens with 8 samples.

Results

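Wnt signaling genes were examined as a group in HepG2 cells, a widely used human liver tumor line. The group was made of the WNT ligands, the Frizzled (FZD) receptors, and the secreted antagonists of the SFRP and DKK families together with NOTUM. It also held a set of regulators and feedback genes of the pathway (LGR4, LGR5, LGR6, RNF43, ZNRF3, AXIN1, AXIN2, NKD1, LEF1 and TCF7). Membership was decided by gene symbol, although the rule itself was proposed with earlier results of these data known. Of 25603 genes in the expression table, 40 were members, comprising 13 ligands, 9 Frizzled receptors, 8 secreted antagonists, 5 surface regulators and 5 intracellular or nuclear genes. A further 8 symbols that fit the rule had no row and were not analysed here (WNT2, WNT3A, WNT5A, WNT7A, WNT9B, WNT16, FZD10 and SFRP2).

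Cells were exposed for 4 days to UNC1999 and valemetostat tosylate, each at 1 µM, which inhibit the histone methyltransferases EZH1 and EZH2 (EZHi), or to DMSO alone (vehicle), given as 0.2% in the labels and as a lower percentage in the methods of the study. Both groups were kept in the same serum-containing medium with insulin and dexamethasone, and no genetic modification was described. RNA-seq was performed on 4 libraries per group, numbered 1 to 4, described by the study as independent biological replicates, while the labels do not say how the cultures were separated. The comparison asks how the expression of Wnt pathway genes differs when EZH1/2 activity is inhibited.

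EZH1 and EZH2 are the catalytic subunits of the polycomb repressive complex 2 (PRC2), which deposits H3K27me3 on repressed and often developmental genes. WNT proteins are secreted, lipid-modified ligands that bind Frizzled receptors. With the co-receptors LRP5 and LRP6 they stabilize β-catenin, which then activates targets through TCF/LEF factors, whereas other ligand and receptor combinations signal without β-catenin. In the adult liver, β-catenin activity marks hepatocytes around the central vein, and HepG2 cells carry a deletion in CTNNB1 that removes phosphorylation sites of β-catenin and thereby stabilizes it.

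Values are on a log2 scale after correction for transcript length, which allows levels to be compared between genes. Where a linear level is easier to read, it is given as an estimated FPKM, obtained by dividing the linear value by 25.6, the mean sum of normalized reads per library in units of 1e6. The deposited values are already normalized, so that the depth of each library is unknown. They are also regularized, which understates both the changes and the spread of genes with few reads. A small spread at few reads may therefore overstate the precision. Across genes, libraries correlated at 0.996 to 0.999 within groups (12 pairs) and at 0.992 to 0.996 between groups (16 pairs). All 7 hepatocyte markers examined were detected and none was called without the replicate block described below, with a summed estimated FPKM of 22200 to 43200 in vehicle and 24300 to 39100 in EZHi. With that block ALB was called lower (-0.28, limma adjusted p 0.0314) and APOA1 and APOB higher (0.42 and 0.36, limma adjusted p 0.00812 and 0.00155). Of 7 fibroblast or stellate, 5 endothelial and 5 immune markers, 2, 3 and 2 could be tested. The summed estimated FPKM of these lists was 12.3 to 15.0, 2.26 to 2.73 and 6.41 to 11.9 in vehicle and 14.8 to 17.3, 3.43 to 7.22 and 6.37 to 10.4 in EZHi. The endothelial genes CDH5 and VWF were called higher, with log2 fold changes of 2.28 and 1.45, whereas PECAM1 (0.04) was not and TEK was near the floor of the table (estimated FPKM of 0.00682 and 0.00701). The part of these genes in the results below was not tested.

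Called genes are those with an adjusted p under 0.05 in limma, with Benjamini-Hochberg adjustment over all 20153 genes whose estimated FPKM averaged 0.1 or more. Of the 40 members, 35 passed this filter. Among them 20 were called higher and 0 lower in EZHi-treated cells, where 8.85% of all tested genes were called higher and 4.27% lower. At an unadjusted p under 0.05, 21 members were higher and 3 lower, but the share of all genes at that threshold was not computed. Both called and at least 2-fold higher were 9 members, against 3.21% of all tested genes. In all, 17 members had every EZHi library above every vehicle library (10.7% of all tested genes) and 1 had every EZHi library below (7.93%). The median log2 fold change was 0.49 over the tested members and -0.01 over all tested genes. In RNA from whole cultures, a change in the number of cells that express a gene and a change in RNA per cell cannot be told apart. After centring each library on the genes whose estimated FPKM averaged 10 or more, the split over all genes moved from 1784 higher and 860 lower to 2550 and 319, and that of the members to 21 and 0.

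Calls among all genes were more often upward at low levels, so the members were also set beside genes of similar level. Of members under an estimated FPKM of 1 in vehicle, 12 of 18 were called higher, against 15.6% of the 7341 tested genes at that level. Between 1 and 10 it was 5 of 5, against 9.41% of 5018 genes, and at 10 and over 3 of 12, against 2.12% of 7794 genes. The lowest class includes WNT1, which passed the filter through its EZHi level, so that these counts are a description. With all 40 members in a fit without the filter on low values, 19 were called higher and 0 lower. Of all 25603 genes in that fit, 2119 were called higher and 807 lower. These 19 included WNT8A and SFRP1, which the filter had left out, whereas the calls of WNT1, NOTUM and SFRP5 were lost (limma adjusted p 0.0671, 0.056 and 0.0696).

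**Figure D1:**
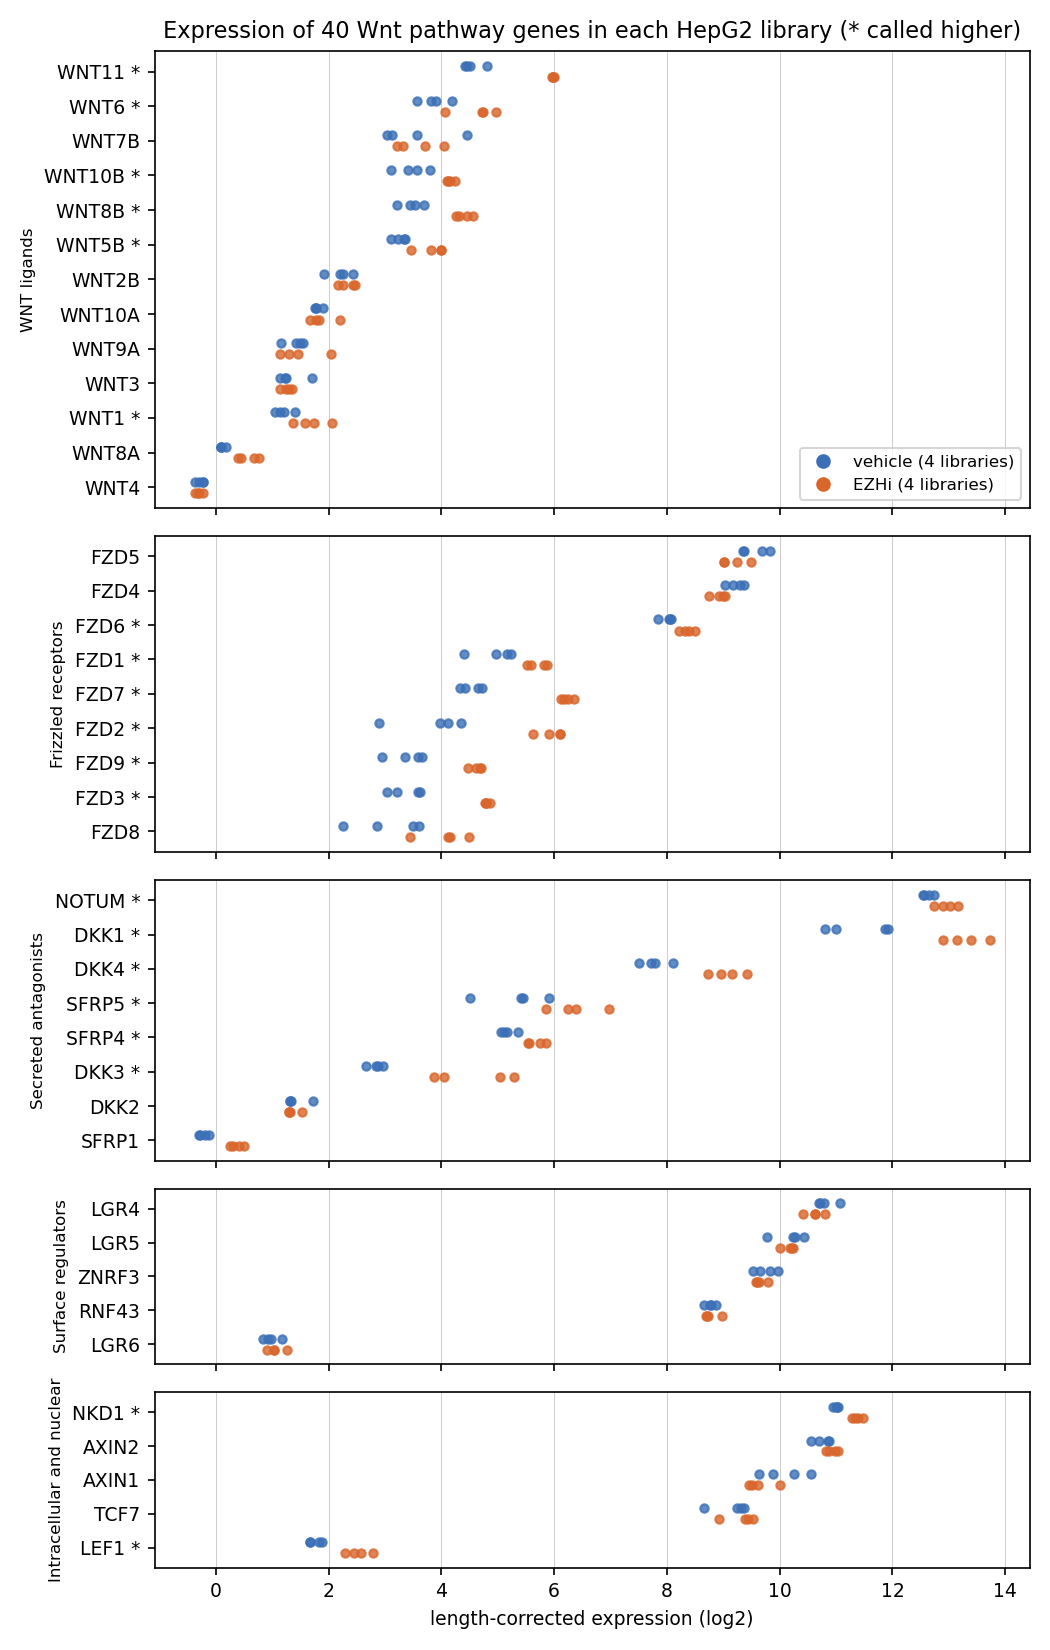
Length-corrected log2 expression (x axis) of the 40 members in each of the 4 vehicle (blue) and 4 EZHi (orange) libraries, by role and ordered by the level in vehicle, with an asterisk for genes called higher. The 6 called Frizzled receptors and the 3 called DKK genes show EZHi libraries to the right of the vehicle libraries, whereas both colors overlap for LGR5, RNF43 and ZNRF3.

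Libraries with the same replicate number deviated together in both groups, clearly for numbers 2 and 3 and more weakly for numbers 1 and 4. A fit with the replicate number as a block called 21 members higher and 4 lower, where it called 14.9% of all tested genes higher and 15.1% lower. The 20 members called higher without the block were all among the 21, and the additional member was FZD8. Without EZHi replicate 2 or without EZHi replicate 4, and without the block, 13 members were called higher. Those fits called 1647 and 1422 of all tested genes higher, against 1784 with all libraries. Among the 20, 12 kept their call in each of the 8 fits that left out 1 library. These were WNT8B, WNT10B, WNT11, FZD2, FZD3, FZD7, FZD9, DKK1, DKK3, DKK4, NKD1 and LEF1. The LEF1 call rested on about 4.11 normalized reads in vehicle and 7.01 in EZHi, where regularized values understate the spread. With quantile normalization 13 remained called, 11 of them among these 12, and 1402 of all 20153 tested genes were called higher.

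Ligand transcripts were scarce in HepG2 cells, and 6 of the 10 tested WNT genes were called higher. Among all tested genes under an estimated FPKM of 1 in vehicle, 15.6% were called higher. Summed over the 13 ligands, the estimated FPKM was 3.77 to 4.03 in the vehicle libraries and 6.35 to 7.26 in the EZHi libraries, 1.73 times higher on average. Every tested ligand lay under an estimated FPKM of 1 in vehicle. No ligand was called lower, and the median log2 fold change of those tested was 0.52.

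WNT11 (ENSG00000085741, GRCh38 chromosome 11, 76186325 to 76210736, minus strand), a ligand best known for signaling without β-catenin in cell movement during development, had the highest level in both groups. Its log2 values were 4.80, 4.41, 4.45 and 4.50 in vehicle replicates 1 to 4 and 5.98, 5.96, 5.98 and 5.99 in EZHi. The groups did not overlap. The 4 EZHi libraries were nearly identical, on regularized values whose spread is understated at few reads. The rise was 1.44 on the log2 scale (standard error, SE, 0.11, limma adjusted p 2.9e-05), or 2.71-fold. About 21.9 normalized reads in vehicle and 59.1 in EZHi lay behind these values, and 8.6% of its exon bases are shared with a gene on the opposite strand, which counting without strand cannot separate.

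WNT8B (ENSG00000075290), a ligand of the developing forebrain, measured 3.53, 3.22, 3.69 and 3.45 in vehicle and 4.56, 4.26, 4.46 and 4.31 in EZHi. WNT10B (ENSG00000169884), a β-catenin-activating ligand known for its role in adipose and bone biology, measured 3.10, 3.41, 3.80 and 3.56 in vehicle and 4.15, 4.24, 4.10 and 4.11 in EZHi. Neither gene overlapped between groups. WNT8B rose by 0.93 (SE 0.12, limma adjusted p 0.000879), and WNT10B by 0.68 (SE 0.14, limma adjusted p 0.0112). The WNT10B call was lost with quantile normalization (0.48, limma adjusted p 0.0654).

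The other 3 called ligands were less stable. WNT6, the second most abundant ligand in vehicle, which is expressed in epithelia, measured 3.91, 3.81, 3.56 and 4.18 in vehicle and 4.74, 4.96, 4.06 and 4.72 in EZHi. EZHi replicate 3 fell within the vehicle range, although the value rose in each of the 4 pairs of equal number. The log2 fold change was 0.76 (SE 0.20, limma adjusted p 0.0357, 0.00279 with the replicate block). WNT5B, a ligand that mostly signals without β-catenin, measured 3.33, 3.10, 3.36 and 3.23 in vehicle and 3.46, 3.99, 4.00 and 3.81 in EZHi. Its EZHi libraries were all above vehicle, replicate 1 only narrowly, and the log2 fold change was 0.56 (SE 0.13, limma adjusted p 0.0226). WNT1, a classical β-catenin-activating ligand, measured 1.04, 1.41, 1.14 and 1.21 in vehicle and 1.74, 2.06, 1.37 and 1.58 in EZHi, with a log2 fold change of 0.49 (limma adjusted p 0.0467). EZHi replicate 3 again lay within the vehicle range.

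WNT1 passed the low-value filter because of its EZHi level (estimated FPKM of 0.0901 in vehicle and 0.128 in EZHi), and only about 5.59 and 7.93 normalized reads lay behind its values. Leaving out 1 library ended the call of WNT6 in 6 of 8 fits, of WNT5B in 5 of 8 and of WNT1 in 6 of 8. The highest adjusted p in these fits was 0.0982 for WNT6 (without EZHi replicate 4), 0.0626 for WNT5B (without vehicle replicate 4) and 0.125 for WNT1 (without vehicle replicate 1). None of the 3 was called with quantile normalization, where the adjusted p were 0.125, 0.117 and 0.122.

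Among the other tested ligands, WNT7B varied most between libraries, from 3.04 to 4.46 in vehicle and from 3.21 to 4.04 in EZHi, with a log2 fold change of 0.02 (95% confidence interval from -0.67 to 0.71). WNT2B (0.13), WNT9A (0.08) and WNT10A (0.07) were not called either, and the sign of each of these 4 values turned negative with quantile normalization. The confidence intervals of WNT2B, WNT9A and WNT10A ended at 0.40, 0.47 and 0.31. WNT3, WNT4 and WNT8A were under the filter, with an estimated FPKM in vehicle of 0.0998, 0.0321 and 0.0422. WNT8A nevertheless measured 0.09 to 0.18 in vehicle and 0.39 to 0.76 in EZHi without overlap, on about 1.61 and 2.22 normalized reads. In the fit without the filter its adjusted p was 0.008 (limma), which may overstate the precision at so few reads.

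Frizzled receptors split by their level in vehicle. All 9 were tested, and 6 were called higher and 0 lower, against 8.85% and 4.27% of all tested genes. The 5 receptors with the lowest levels in vehicle had log2 fold changes of at least 1.00. By contrast, FZD4 and FZD5, the most abundant receptors, had negative log2 fold changes.

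FZD2 (ENSG00000180340, chromosome 17, 44557484 to 44561262, plus strand), a receptor linked to signaling through ROR co-receptors, measured 3.98, 4.35, 2.90 and 4.11 in vehicle and 5.63, 6.10, 6.11 and 5.90 in EZHi. Vehicle replicate 3 was the lowest library, and the lowest EZHi library was well above the highest vehicle library. The rise was 2.10 (SE 0.28, limma adjusted p 0.00092), or 4.28-fold, the largest log2 fold change of the tested members. It ranged from 1.79 to 2.27 when 1 library was left out. FZD7 (ENSG00000155760, chromosome 2, 202033855 to 202038441, plus strand), a receptor of progenitor cells in several epithelia, measured 4.72, 4.65, 4.33 and 4.41 in vehicle and 6.25, 6.12, 6.35 and 6.18 in EZHi. These groups were tight and far apart, with a log2 fold change of 1.70 (SE 0.12, limma adjusted p 1.88e-05), or 3.24-fold.

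FZD3 and FZD9 rose in the same way. FZD3, known for its role in axon growth and planar cell polarity, measured 3.22, 3.59, 3.03 and 3.62 in vehicle and 4.79, 4.87, 4.79 and 4.78 in EZHi (log2 fold change 1.44, SE 0.14, limma adjusted p 0.000133). FZD9, first studied in brain and bone, measured 3.59, 3.65, 2.94 and 3.36 in vehicle and 4.71, 4.68, 4.61 and 4.47 in EZHi (log2 fold change 1.24, SE 0.16, limma adjusted p 0.000656). Both genes had EZHi libraries that were closer to each other than the vehicle libraries were. FZD1, a close relative of FZD2 and FZD7, measured 4.96, 5.23, 4.40 and 5.17 in vehicle and 5.58, 5.82, 5.52 and 5.88 in EZHi, with a log2 fold change of 0.76 (SE 0.18, limma adjusted p 0.0234). The groups did not overlap, but the call was lost without vehicle replicate 1, EZHi replicate 2 or EZHi replicate 4 (adjusted p up to 0.0747) and with quantile normalization (0.57, adjusted p 0.0717). Reads that FZD1, FZD2 and FZD7 might share as related genes could not be examined in these values.

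FZD8 measured 3.49, 3.60, 2.26 and 2.85 in vehicle and 4.12, 4.49, 3.45 and 4.16 in EZHi. The ranges overlapped because libraries of both groups numbered 3 were low, and each of the 4 pairs rose, by 0.63 to 1.30. The log2 fold change of 1.00 was not called (limma adjusted p 0.0632) but was called with the replicate block (0.000539) and in 2 of the 8 fits without 1 library.

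The abundant receptors behaved differently. FZD6, which antagonizes β-catenin signaling in some settings and acts in planar cell polarity, rose modestly, from 8.05, 8.07, 8.03 and 7.84 in vehicle to 8.49, 8.40, 8.32 and 8.22 in EZHi (log2 fold change 0.36, SE 0.09, limma adjusted p 0.0212). Its call was lost without vehicle replicate 4, EZHi replicate 1 or EZHi replicate 2 (adjusted p up to 0.0625). On the opposite strand, BAALC-AS1 shares 3.4% of the exon bases of FZD6 and itself had a log2 fold change of 1.35 (limma adjusted p 6.13e-05). Counting was without strand, and the part of these shared bases in the FZD6 value was not tested.

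FZD5, a receptor for β-catenin-activating ligands in epithelia and the most abundant Frizzled transcript, measured 9.37, 9.35, 9.83 and 9.68 in vehicle and 9.02, 9.01, 9.49 and 9.24 in EZHi. FZD4, which also binds the non-WNT ligand norrin, measured 9.17, 9.03, 9.37 and 9.29 in vehicle and 8.93, 8.74, 9.03 and 8.99 in EZHi. The FZD5 ranges overlapped, and those of FZD4 did not, by a small margin. FZD5 changed by -0.36 (limma adjusted p 0.125) and FZD4 by -0.29 (limma adjusted p 0.07). Both were negative in 4 of 4 pairs, from -0.43 to -0.34 for FZD5 and from -0.34 to -0.23 for FZD4, and both were called lower with the replicate block (adjusted p 0.000526 and 0.00206). Without vehicle replicate 2 and without the block, FZD4 was called lower, and it was the only member called lower in a fit without the block. The median log2 fold change of all tested genes at 10 and over in vehicle was -0.10.

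As a description, made after these values were seen, the estimated FPKM of the 5 low receptors that were called (FZD1, FZD2, FZD3, FZD7 and FZD9) was summed. The sum was 3.70, 4.20, 2.53 and 3.79 in vehicle and 8.88, 9.76, 9.71 and 9.40 in EZHi. Their share of all Frizzled transcripts went from 5.41% ± 1.47 (SD, n = 4) to 14.6% ± 1.05 (SD, n = 4). The summed level of all 9 receptors was 66.9 ± 6.10 (SD, n = 4) in vehicle-treated cells and 65.0 ± 4.44 (SD, n = 4) with EZHi, and FZD4 with FZD5 made up 53.0 ± 7.15 and 42.0 ± 5.05 of it.

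**Figure D2:**
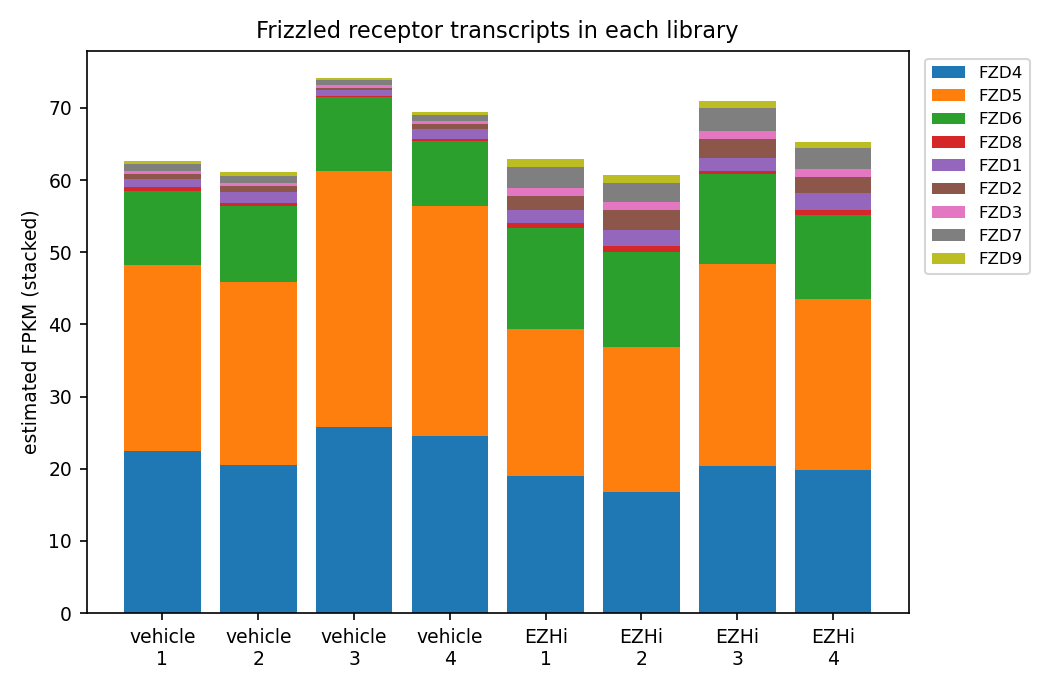
Estimated FPKM (y axis, stacked from 0) of the 9 Frizzled receptors in each library (x axis, 4 vehicle and 4 EZHi). FZD4, FZD5 and FZD6 form most of every bar, and the bands of FZD1, FZD2, FZD3, FZD7 and FZD9 at the top grow from a sum of 2.53 to 4.20 in vehicle to 8.88 to 9.76 in EZHi.

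Secreted antagonists comprised the most abundant members, and 6 of the 7 tested were called higher, against 8.85% of all tested genes. DKK proteins bind LRP5 and LRP6 and keep them from the receptor complex, SFRP proteins resemble the ligand-binding part of Frizzled receptors and bind WNT proteins, and NOTUM is a secreted enzyme that removes the lipid from WNT proteins.

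DKK1 (ENSG00000107984, chromosome 10, 52314281 to 52318042, plus strand), a feedback antagonist and itself a target of β-catenin in many cells, measured 11.92, 11.87, 10.81 and 10.99 in vehicle and 13.73, 13.40, 13.15 and 12.90 in EZHi. In vehicle, replicates 1 and 2 were about 1 unit above replicates 3 and 4, and the order of the libraries in EZHi was similar. Each pair rose, by 1.53 to 2.34. The log2 fold change was 1.90 (SE 0.27, limma adjusted p 0.00146, 6.65e-06 with the replicate block), or 3.73-fold, from an estimated FPKM of 112 to 402. Among the 7794 tested genes at 10 or more estimated FPKM in vehicle, 2 had a log2 fold change as large as that of DKK1 or larger, DKK1 included, a comparison made after its value was seen. The antisense gene PRKG1-AS1, at an estimated FPKM of 0.332 in vehicle and 0.453 in EZHi, shares 10.2% of the exon bases of DKK1.

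DKK4 (ENSG00000104371), a further DKK antagonist that β-catenin is known to induce, measured 7.71, 7.51, 7.78 and 8.10 in vehicle and 8.96, 9.42, 8.73 and 9.15 in EZHi, with a log2 fold change of 1.29 (SE 0.16, limma adjusted p 0.000598). DKK3 (ENSG00000050165), a divergent family member that does not act on LRP5 and LRP6 in the manner of DKK1, measured 2.84, 2.96, 2.87 and 2.66 in vehicle and 4.05, 5.28, 3.86 and 5.04 in EZHi. All EZHi libraries were above vehicle, and within EZHi replicates 2 and 4 stood about 1 unit above replicates 1 and 3. Its log2 fold change was 1.73 (SE 0.29, limma adjusted p 0.00383). USP47 on the opposite strand shares 47.5% of the exon bases of DKK3 and is the more abundant of the pair (estimated FPKM of 17.6 in vehicle and 17.4 in EZHi), with a log2 fold change of -0.02 (limma adjusted p 0.933). DKK2 was near the filter, at an estimated FPKM of 0.105 and 0.101, with a log2 fold change of -0.06 (95% confidence interval from -0.29 to 0.16) that became 0.03 when libraries were centred on abundant genes.

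NOTUM (ENSG00000185269, chromosome 17, 81952507 to 81961840, minus strand) was the most abundant member in vehicle, at 12.56, 12.55, 12.73 and 12.65, and measured 12.73, 12.89, 13.16 and 13.02 in EZHi. The lowest EZHi library only just passed the highest vehicle library. The log2 fold change of 0.33 (SE 0.10) was at the edge of the threshold (limma adjusted p 0.0498), with 0.00186 in the fit with the replicate block. Leaving out 1 library ended the call in 6 of 8 fits, with an adjusted p up to 0.134 without EZHi replicate 4.

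SFRP4 and SFRP5 were present at a few estimated FPKM. SFRP4 measured 5.11, 5.17, 5.06 and 5.35 in vehicle and 5.53, 5.55, 5.86 and 5.74 in EZHi without overlap (log2 fold change 0.50, SE 0.12, limma adjusted p 0.0187). SFRP5 measured 5.44, 5.90, 4.50 and 5.41 in vehicle and 6.25, 6.97, 5.86 and 6.39 in EZHi, where EZHi replicate 3 fell below vehicle replicate 2 (log2 fold change 1.05, SE 0.30, limma adjusted p 0.0496, 0.000166 with the replicate block). SFRP5 rose in 4 of 4 pairs. The SFRP5 call was lost in 6 of the 8 fits without 1 library, with an adjusted p up to 0.118 without EZHi replicate 4, and the SFRP4 call without vehicle replicate 1 or EZHi replicate 4 (up to 0.0598). With quantile normalization neither was called (limma adjusted p 0.103 for SFRP4 and 0.0949 for SFRP5). SFRP1 was under the filter, with an estimated FPKM of 0.0333 in vehicle and 0.0504 in EZHi. Its values did not overlap between groups (-0.30 to -0.13 against 0.25 to 0.49), and without the filter its adjusted p was 0.000496 (limma), on about 3.56 and 5.38 normalized reads. At so few reads this adjusted p may overstate the precision.

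Of the surface regulators of receptor turnover, 4 were tested and none was called. All of these lay at 10 or more estimated FPKM in vehicle, where 2.12% of all tested genes were called higher and 9.35% lower. With so few genes, the lack of calls is near these shares. LGR4 and LGR5 are receptors for R-spondins, and RNF43 and ZNRF3 are ubiquitin ligases that remove Frizzled receptors from the membrane and are themselves induced by β-catenin. LGR4 measured 10.72, 10.69, 11.07 and 10.78 in vehicle and 10.63, 10.42, 10.80 and 10.62 in EZHi. LGR5 measured 10.27, 10.43, 9.78 and 10.24 in vehicle and 10.19, 10.21, 10.00 and 10.23 in EZHi. The ranges overlapped for both genes. LGR4 changed by -0.20 (limma adjusted p 0.267) and was negative in 4 of 4 pairs, with an adjusted p of 0.0132 in the fit with the replicate block. That fit called 15.1% of all tested genes lower. The values for LGR5, ZNRF3 and RNF43 were -0.02 (95% confidence interval from -0.31 to 0.27), -0.09 (from -0.32 to 0.14) and 0.00 (from -0.18 to 0.19). With libraries centred on abundant genes LGR5 was at 0.08 and ZNRF3 at 0.01, so their sign depended on the scaling. LGR6 was under the filter (estimated FPKM of 0.0769 and 0.0816). Other genes share 69.0% of the exon bases of RNF43.

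Of the intracellular and nuclear members, NKD1 and LEF1 were called higher. NKD1 (ENSG00000140807), which binds Dishevelled and is a feedback inhibitor induced by β-catenin, measured 10.95, 10.99, 11.01 and 11.03 in vehicle and 11.28, 11.33, 11.47 and 11.39 in EZHi. Its libraries were tight, and the log2 fold change of 0.37 (SE 0.06, limma adjusted p 0.00275) was called in every fit that left out 1 library. AXIN2, a scaffold of the β-catenin destruction complex that is itself a target of β-catenin, measured 10.85, 10.88, 10.56 and 10.70 in vehicle and 10.98, 10.87, 11.03 and 10.83 in EZHi. Its ranges overlapped, and the log2 fold change of 0.18 (95% confidence interval from -0.01 to 0.37) was not called (limma adjusted p 0.208), nor with the replicate block (0.0939).

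LEF1, a nuclear partner of β-catenin, measured 1.66, 1.89, 1.66 and 1.83 in vehicle and 2.57, 2.78, 2.29 and 2.45 in EZHi. The groups did not overlap, with a log2 fold change of 0.76 (SE 0.11, limma adjusted p 0.00142). About 4.11 normalized reads in vehicle and 7.01 in EZHi lay behind these values, so the level was low in both groups (estimated FPKM of 0.132 and 0.226). At so few reads the regularized spread is understated, so the SE and the adjusted p of LEF1 may overstate the precision. TCF7, a factor of the same family at a far higher level (estimated FPKM of 22.5 and 25.1), changed by 0.17 (limma adjusted p 0.609). AXIN1, the second AXIN scaffold, ranged from 9.64 to 10.55 in vehicle and from 9.45 to 10.01 in EZHi. It changed by -0.44 without being called (limma adjusted p 0.184), but it was negative in each pair, from -0.64 to -0.19, and was called lower with the replicate block (0.00208).

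**Figure D3:**
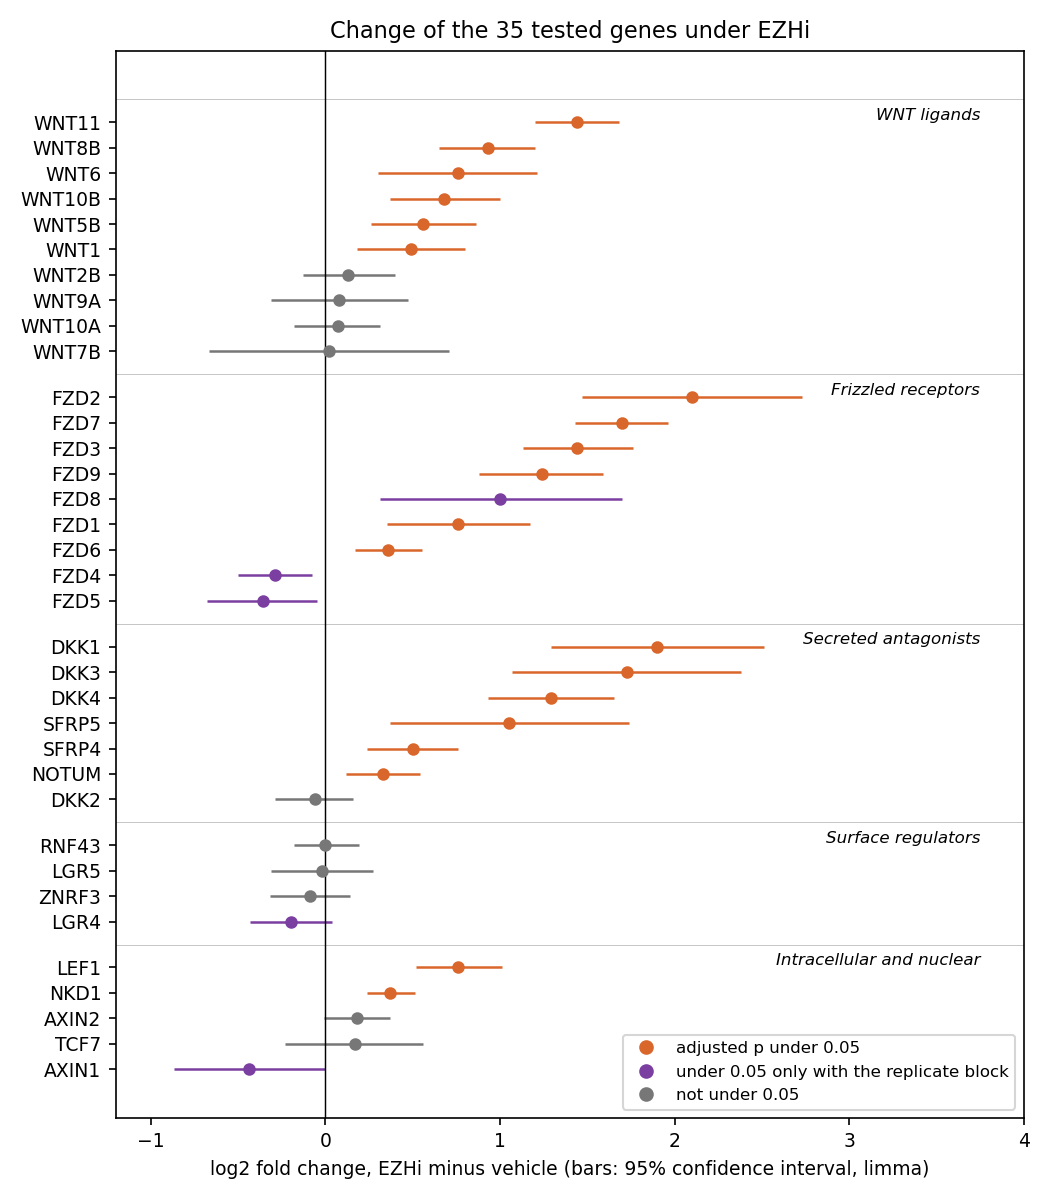
Log2 fold change of EZHi over vehicle (x axis) for the 35 tested members by role, as points with 95% confidence intervals from limma (4 libraries per group). The 20 orange genes were called without the replicate block, all to the right of 0, and the 5 purple genes (FZD8, FZD5, FZD4, LGR4 and AXIN1) only with it.

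The remaining genes of the pathway were followed in a list of 61 genes drawn up by role, of which 54 had a row and 49 were tested. In this list 11 were called higher and 2 lower, with a median log2 fold change of 0.04, against shares over all tested genes of 8.85% and 4.27%. Blocking on the replicate number gave 16 and 8, against shares of 14.9% and 15.1%. The counts of lower genes were thus near the background. No R-spondin (RSPO1 to RSPO4) and no WIF1 was analysed here, and FRZB was under the filter (estimated FPKM of 0.0617 and 0.123).

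Most of the intracellular genes of signal transduction were not called, 12 of the 15 tested. CTNNB1, which encodes β-catenin, changed by -0.02 (limma adjusted p 0.89) at an estimated FPKM of 182 in vehicle. The co-receptors LRP5 and LRP6 changed by -0.25 and -0.07 (limma adjusted p 0.199 and 0.685), and LRP5 was called lower with the replicate block (0.0128). PORCN and WLS, required to lipidate and secrete WNT proteins, changed by -0.03 and 0.18 (limma adjusted p 0.936 and 0.0639), and WLS was scarce, at an estimated FPKM of 0.111 in vehicle. TCF7L2 changed by -0.16 (limma adjusted p 0.437), with an adjusted p of 0.0407 in the fit with the replicate block. DVL1, which carries the signal from Frizzled receptors into the cell, was called lower by limma (-0.29, adjusted p 0.0232), but in only 3 of the 8 fits without 1 library. DVL2 (-0.22) and the kinase gene CSNK1A1 (-0.20) had every EZHi library below vehicle and were called lower only with the replicate block (limma adjusted p 0.00639 and 0.00896).

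Of the 15 tested genes of intracellular signal transduction, which include the polarity genes, 2 were called higher and 1 lower. Of the 5 tested co-receptors 1 was called higher and 0 lower. Over all tested genes the shares were 8.85% and 4.27%, and with so few genes these counts are near them. VANGL2, a core planar cell polarity gene, rose by 2.99 on the log2 scale from an estimated FPKM of 0.182 to 1.42 (limma adjusted p 5.39e-06). PRICKLE2, of the same polarity pathway, rose by 1.14 (0.0019), and ROR1, a co-receptor for signaling without β-catenin, by 0.79 (0.00317). VANGL1 (-0.12) and DAAM1 (-0.15), also polarity genes, and the co-receptors PTK7 (0.00) and RYK (-0.09) were not called. APCDD1, a membrane antagonist of the pathway, rose by 2.06 (limma adjusted p 0.000108), and the membrane glycoprotein gene TPBG by 1.35 (limma adjusted p 1.96e-05).

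Among nuclear genes, PYGO1, a co-activator of β-catenin, rose by 2.34 (limma adjusted p 7.49e-06), passing the filter through its EZHi level (estimated FPKM of 0.0697 in vehicle and 0.351 in EZHi). The Groucho-type co-repressors TLE4, TLE2 and TLE3 rose by 1.71, 1.15 and 0.45 (limma adjusted p 0.000289, 0.00275 and 0.0033), whereas TLE1, the most abundant of them, changed by -0.19 (limma adjusted p 0.391, 0.0128 with the replicate block).

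Of 12 known target genes of β-catenin on the list, 11 were tested, 2 were called higher and 1 lower, against 8.85% and 4.27% of all tested genes. With the replicate block 7 were called higher and 1 lower, against 14.9% and 15.1%. SP5, a target in many cell types, rose by 0.23 from an estimated FPKM of 232 to 272 (limma adjusted p 0.0472), a call that held in 1 of the 8 fits without 1 library. CYP2E1, a gene of hepatocytes around the central vein, rose by 0.67 (limma adjusted p 0.0353) from an estimated FPKM of 0.472, and this call held in 3 of 8. BMP4 was called lower, by -0.53 (limma adjusted p 0.00857). GLUL, which encodes glutamine synthetase and marks the same pericentral hepatocytes, changed by 0.19 (limma adjusted p 0.558, 0.0111 with the replicate block).

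**Figure D4:**
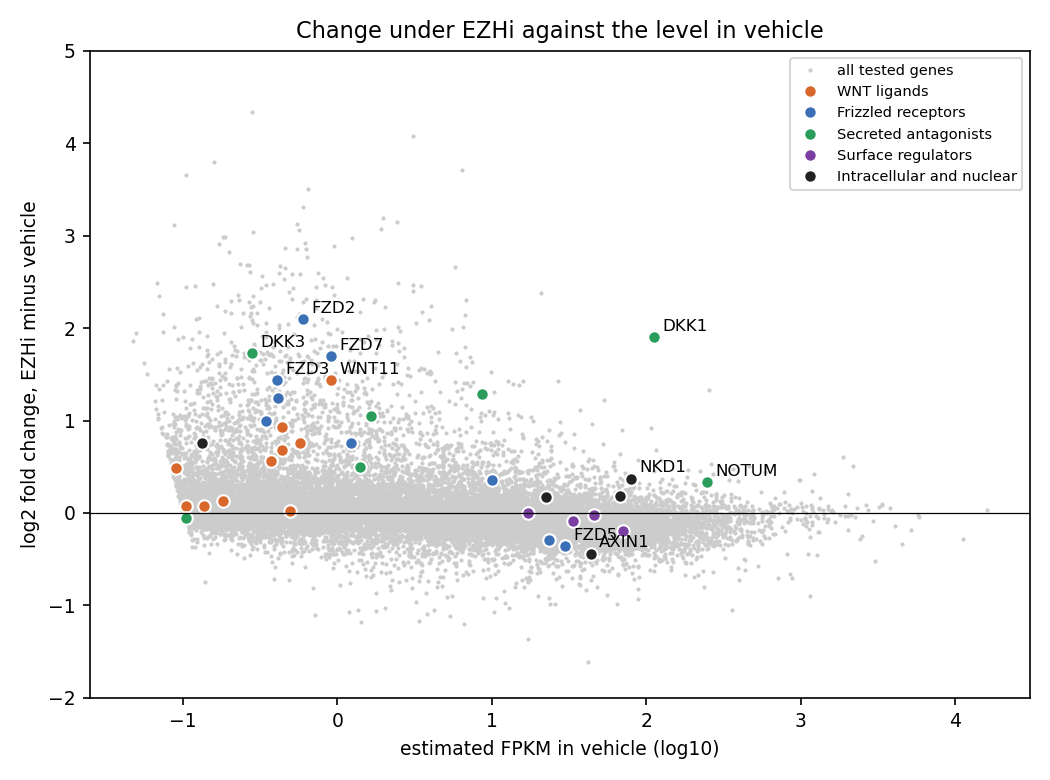
Log2 fold change of EZHi over vehicle (y axis) against the estimated FPKM in vehicle (x axis, log10) for all 20153 tested genes (grey) and the 35 tested members colored by role. DKK1 lies far above other genes of its level (log2 fold change of 1.90 at an estimated FPKM of 112), and the ligands all lie at an estimated FPKM under 1.

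Promoter sequences of members were then looked at, since PRC2 is known to act mostly at promoters rich in CpG dinucleotides. RefSeq windows of 300 bases (GRCh38.p14, 250 before to 50 after the start site) were matched for 24 of the 40 members, in 30 windows. Taking the window with most CpG for each gene, the 10 genes called higher held 4 to 37 CpG with a median of 24.0, and the 10 tested genes that were not called held 5 to 53 with a median of 34.5. The median over all 35116 promoter windows, with every window of a gene counted, was 14.0. The 10 matched genes called higher thus had promoters rich and poor in CpG. Several called genes with large rises, among them FZD2, FZD3, FZD7, WNT11, DKK3 and DKK4, had no window. The 4 matched members that were not tested had a median of 19.5. The following windows are shown as examples rich and poor in CpG, without the highest counts of the range, and with CG in capitals. FZD9 (31 CpG, GC content of 73.7%) and WNT8B (4 CpG, 45.7%) were called higher, whereas FZD5 (38 CpG, 77.0%) was not.
FZD9 (chr7:73433528-73433827, plus strand): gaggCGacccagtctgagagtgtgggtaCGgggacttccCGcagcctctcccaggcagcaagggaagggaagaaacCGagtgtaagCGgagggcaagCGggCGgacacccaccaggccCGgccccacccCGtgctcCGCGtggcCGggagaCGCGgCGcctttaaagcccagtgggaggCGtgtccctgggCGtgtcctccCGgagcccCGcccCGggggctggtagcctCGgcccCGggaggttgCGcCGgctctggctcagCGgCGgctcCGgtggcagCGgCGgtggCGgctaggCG
WNT8B (chr10:100462759-100463058, plus strand): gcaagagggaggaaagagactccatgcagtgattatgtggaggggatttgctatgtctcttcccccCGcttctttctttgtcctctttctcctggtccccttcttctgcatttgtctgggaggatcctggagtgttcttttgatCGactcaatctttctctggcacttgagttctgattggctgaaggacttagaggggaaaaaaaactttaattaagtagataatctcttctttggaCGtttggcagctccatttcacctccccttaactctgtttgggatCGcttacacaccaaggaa
FZD5 (chr2:207769857-207770156, minus strand): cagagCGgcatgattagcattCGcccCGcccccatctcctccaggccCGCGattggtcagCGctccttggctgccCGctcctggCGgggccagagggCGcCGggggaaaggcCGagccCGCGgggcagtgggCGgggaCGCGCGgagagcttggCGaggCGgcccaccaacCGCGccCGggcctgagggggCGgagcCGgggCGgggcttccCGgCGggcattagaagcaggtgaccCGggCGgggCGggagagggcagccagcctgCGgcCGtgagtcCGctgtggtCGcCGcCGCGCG

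The promoter of DKK1, the gene with the largest rise among abundant members, was examined for the short motifs bound by TCF/LEF factors. The motif CTTTGAA was searched on both strands, as were the related motif CTTTGAT, the variant CTTTGTA and the variant CTTTGTT, none of which can overlap another on the same strand. At least 1 of them was found in 13.8% of all windows. Among the windows of the 24 members, those of DKK1, TCF7 and WNT3 held a match. In DKK1, CTTTGAA starts at -95 and CTTTGTT at -76 on the gene strand, counted from the start site as 0, and CTTTGAA is found in 4.4% and CTTTGTT in 5.2% of all windows. The window is shown with these matches in capitals.
DKK1 (chr10:52314031-52314330, plus strand): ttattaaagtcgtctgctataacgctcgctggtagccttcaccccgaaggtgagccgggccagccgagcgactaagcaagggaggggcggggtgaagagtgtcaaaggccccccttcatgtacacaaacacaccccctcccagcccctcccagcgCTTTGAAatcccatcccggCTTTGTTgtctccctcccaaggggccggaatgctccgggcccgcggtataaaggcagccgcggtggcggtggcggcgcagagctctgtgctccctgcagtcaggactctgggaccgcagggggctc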

How the data were processed

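Per the labels, the authors aligned reads to hg38 with HISAT2 2.2.1, counted them per gene with HTSeq 0.9.1 and normalized them with DESeq2 1.40.2, whose regularized log2 values, corrected for transcript length, were deposited. The deposited column names refer to FPKM, but the values are on a log2 scale, from -6.81 to 19.01. Low values fell by 0.87 for each doubling of length over 20 length bins. The table held 25604 rows, of which 1 exact duplicate was dropped. Depth is unknown, and normalized reads rebuilt from the values summed to between 24.4 and 27.3 per library in units of 1e6. Counting is described as unstranded and, in the methods of the study, in the union mode of HTSeq.

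Values were compared in limma 3.58.1 (R 4.3.3) with a trended prior and two-sided tests on 20153 genes whose estimated FPKM averaged 0.1 or more, without a pseudocount, and p-values were adjusted over all of them. The procedure was tested on simulated data. Libraries with the same number correlated in their deviations from the group means at 0.31, 0.558, 0.634 and 0.216 for numbers 1 to 4. Unlike numbers ranged from -0.582 (vehicle 2 with EZHi 3) to 0.199 (vehicle 1 with EZHi 2). The higher values for equal numbers were taken as pairing seen in the data and not stated in the labels. Alternatives were other filters, scalings and pseudocounts, a robust prior, the replicate block and each library left out. Named genes were every called gene, the 2 tested members of each role with the highest level in vehicle, with values per library, and a set of other pathway genes. Members and lists were chosen with earlier results of these data known. Coordinates are from GENCODE 44 (GRCh38).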

Additional observations from a re-analysis of the deposited data

Results flagged for a closer look

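In 7 of 70 groups of 4 libraries, 1 library stood apart from the other 3 beyond the 95% critical value of Dixon's test, where chance gives about 3.5. On the log2 scale, FZD6 in vehicle replicate 4 was at 7.84 beside 8.03 to 8.07, and TCF7 in vehicle replicate 3 at 8.66 beside 9.25 to 9.37. FZD3 in EZHi replicate 2 was at 4.87 beside 4.78 to 4.79, and RNF43 in EZHi replicate 3 at 8.98 beside 8.70 to 8.72. WNT10A in vehicle replicate 2 was at 1.90 beside 1.76 to 1.77. DKK2 stood apart in both groups, at 1.72 in vehicle replicate 2 beside 1.32 to 1.33 and at 1.52 in EZHi replicate 4 beside 1.30 to 1.32. Of these genes, FZD6 and FZD3 were called higher, and the FZD6 call was lost without vehicle replicate 4.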

How the results depend on the processing

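The count of 20 members called higher was 10 with a filter at an estimated FPKM of 1, 13 with quantile normalization and 13 to 19 without 1 library. Over all genes, the 1784 called higher were 780 of 13007 with that filter, 1402 with quantile normalization and 1422 to 1711 without 1 library. The count of 0 members called lower was 4 with the replicate block, 3 with the block and centring together, and 0 to 1 without 1 library. Over all genes, the 860 called lower were 3048, 1368 and 389 to 860 in these fits. Of the other pathway genes, 11 called higher became 4 with the filter at 1 and 18 with the block and centring, a fit that called 4549 of all genes higher. The 2 called lower became 1 with quantile normalization, with centring and without replicate 3 in both groups, 4 with a pseudocount of 0.5 or 0.1, 8 with the replicate block and 1 to 2 without 1 library.

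The members' median of 0.49 was 0.34 with the filter at 1, 0.42 with no filter, 0.37 with quantile normalization, 0.58 with centring, with or without the block, 0.33 and 0.37 with pseudocounts of 0.5 and 0.1, 0.40 without replicate 3 in both groups, and 0.39 to 0.50 without 1 library. The filters change which genes are tested, and the cause of the other differences was not tested.

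Signs turned only among members that were not called. With quantile normalization WNT7B was at -0.19, WNT2B at -0.02, WNT10A at -0.07, WNT9A at -0.04, LGR5 at 0.07 and ZNRF3 at 0.00. With centring, with or without the block, DKK2 was at 0.03, LGR5 at 0.08 and ZNRF3 at 0.01. WNT7B was at -0.01 with a pseudocount of 0.5. Without replicate 3 in both groups WNT7B was at -0.03 and RNF43 at -0.10. Without 1 library, WNT7B ranged from -0.15 to 0.32, WNT10A from -0.04 to 0.13, WNT9A from -0.11 to 0.19, DKK2 from -0.12 to 0.04, LGR5 from -0.15 to 0.06 and RNF43 from -0.06 to 0.04.

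Leaving out replicate 3 of both groups, and the block with centring, were chosen after seeing the data. The block changed 5 calls of members and no other. Over all genes it called 3003 higher and 3048 lower, against 1784 and 860 without it. Unknown depth limits the precision of genes at low level, where few reads lie behind a value.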
